A study of Homo sapiens with 2 samples.

Results

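The region described here is a window of 7.40 Mb around CDKN2A and CDKN2B on the short arm of chromosome 9, in band 9p21. Its peaks were called from a pulldown of HA-tagged ETV6, and whether each is a binding site was not tested. Its members are the 329 peaks whose summit lies between positions 18195000 and 25597000 of chromosome 9 in build hg19, out of 315787 peaks in the whole list and 13264 on that chromosome. The window was chosen by the positions of these same peaks, around a long stretch without any, so the stretch and its emptiness are given as a description and no test is made of them. The peak list comes from chromatin immunoprecipitation sequencing in Reh, a long-established cell line from pre-B acute lymphoblastic leukaemia with the t(12;21) translocation. Cells of both groups received 200 ng of pCCL virus with 8 µg/mL polybrene and were grown for 2 weeks. In the ETV6-HA group the virus carried ETV6 with an HA tag, and in the ETV6 group it carried ETV6 without one. Both went through a pulldown with anti-HA beads. Each group is labelled as 1 pooled sample, so there is no spread between replicates, and the 1 peak list used here is that of the ETV6-HA pool.

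ETV6 is a transcription factor of the ETS family, whose members recognise a GGAA core in DNA, and it acts mainly as a repressor in blood cells. Band 9p21 holds the type I interferon cluster, MTAP, CDKN2A and CDKN2B. CDKN2A encodes the cell cycle inhibitor INK4a and, from another start and reading frame, ARF, another growth-restraining protein. CDKN2B encodes the related inhibitor INK4b, and MTAP is an enzyme of methionine salvage. Loss of DNA in 9p21 is a common change in acute lymphoblastic leukaemia. Copy number was not measured in these data.

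In RefSeq's annotation of GRCh38.p14, used here for names and order alone, 28 protein-coding genes run from SLC24A2 to TUSC1. After SLC24A2, a sodium, calcium and potassium exchanger, come MLLT3, a chromatin reader and fusion partner of KMT2A in leukaemia, then FOCAD and HACD4. The cluster of 16 interferon genes follows, from IFNB1 and IFNW1 through 13 IFNA genes to IFNE, with KLHL9, a ubiquitin ligase adaptor, inside it. MTAP, CDKN2A, CDKN2B and DMRTA1 come next, with 0 other protein-coding genes between them. ELAVL2, a neuronal RNA-binding protein, is the next protein-coding gene after DMRTA1, and IZUMO3 and TUSC1 close the series. The peaks are in hg19 and no annotation of that build was used here. Which of these genes lie inside the peak-free stretch, and which lie beside it, is therefore not given.

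The promoters of MTAP, CDKN2A and CDKN2B, 3 of the genes that the window was drawn to span, are shown with the core that ETS factors recognise. Each run is the 250 bases before a start listed by RefSeq in GRCh38.p14, 5′ to 3′ on the gene's strand, with GGAA and its reverse complement TTCC in capitals. RefSeq lists 2 starts for CDKN2A, given in the order of its table.
MTAP: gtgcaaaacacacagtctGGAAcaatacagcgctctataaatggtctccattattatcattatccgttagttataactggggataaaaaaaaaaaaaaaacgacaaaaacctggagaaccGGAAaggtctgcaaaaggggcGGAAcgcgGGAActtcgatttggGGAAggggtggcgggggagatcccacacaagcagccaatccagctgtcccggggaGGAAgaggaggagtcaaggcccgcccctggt
CDKN2A, first start listed: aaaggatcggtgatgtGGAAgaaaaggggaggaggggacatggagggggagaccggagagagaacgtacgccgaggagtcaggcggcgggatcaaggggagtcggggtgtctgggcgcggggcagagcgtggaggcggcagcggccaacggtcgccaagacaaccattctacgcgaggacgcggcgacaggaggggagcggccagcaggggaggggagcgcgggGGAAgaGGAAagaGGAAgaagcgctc
CDKN2A, other start listed: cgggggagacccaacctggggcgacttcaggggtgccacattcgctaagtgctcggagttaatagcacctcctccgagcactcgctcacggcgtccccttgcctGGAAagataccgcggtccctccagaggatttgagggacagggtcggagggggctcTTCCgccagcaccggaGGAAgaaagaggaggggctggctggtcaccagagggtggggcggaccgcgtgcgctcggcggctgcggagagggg
CDKN2B: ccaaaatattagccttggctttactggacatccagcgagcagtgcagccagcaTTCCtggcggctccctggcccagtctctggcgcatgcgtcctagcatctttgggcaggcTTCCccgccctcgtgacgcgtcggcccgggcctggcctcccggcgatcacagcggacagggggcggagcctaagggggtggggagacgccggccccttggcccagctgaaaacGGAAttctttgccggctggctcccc
The core was found 6 times before MTAP, 4 and 3 times before the 2 starts of CDKN2A and 3 times before CDKN2B, counting both strands. Such matches are common. Of 35116 promoters of the same length, 92.7% hold at least 1, with a median of 3. The longer ETS motif CCGGAAGT, which contains the core, was in none of the 4 runs on either strand and is in 3.42% of all promoters. A match is a string of letters and not a binding site, and these letters do not show where the promoters lie against the peaks.

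The longest peak-free stretch of the window ran from 20662437 to 23129612 on chromosome 9, a length of 2467176 bp or 33.3% of the window. It was 18 times as long as the next stretch. On its lower-coordinate side 2.47 Mb of window held 240 peaks, and on its higher-coordinate side another 2.47 Mb held 89. A peak is listed here when its summit reached about 12 reads, the lowest pileup in the list. The list gives no coverage between peaks, so the number of reads inside the stretch was not measured. An absence of peaks says that no summit there passed the threshold of the peak caller, not that reads or binding were absent.

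**Figure D1:**
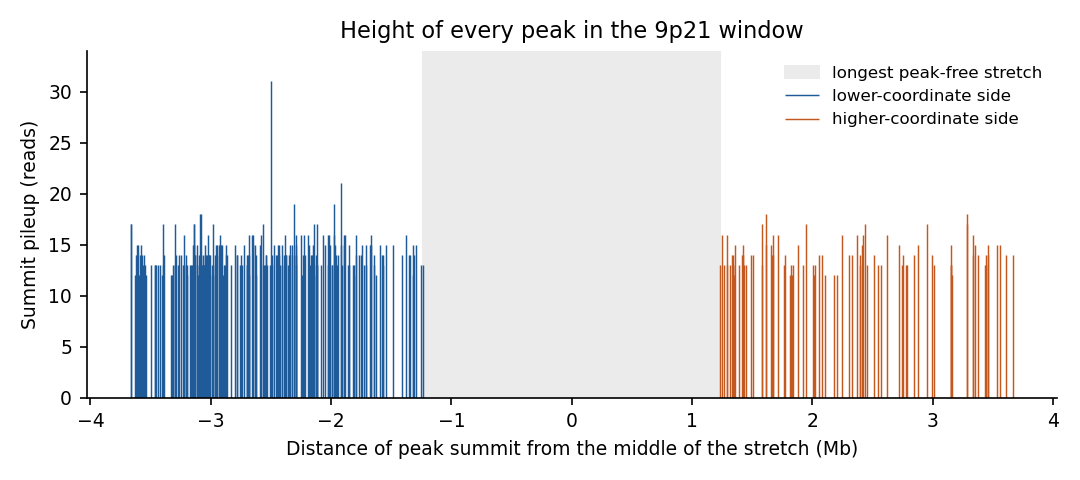
Each vertical line is 1 of the 329 peaks of the window, placed by the distance of its summit from the middle of the peak-free stretch (Mb) and as tall as its summit pileup (reads). The shaded stretch of 2.47 Mb holds no line, the lower-coordinate side is crowded with lines mostly of 12 to 19 reads, and the tallest, at 31 reads, stands on that side.

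Both edges were set by ordinary low peaks. The last peak before the stretch lay at chr9:20662362-20662436, 75 bp wide at a pileup of 13 reads and 2.65-fold enrichment over background. The first peak after it lay at chr9:23129613-23129675, 63 bp wide, with the same 13 reads and the same fold. The background at both was 4.29 reads, 1 value shared by 95.8% of the list. It thus tells nothing of coverage around the edges. At this shared level 1 read changes the fold by 0.189. Both edge peaks therefore lay 1 read above the lowest pileup of the list. The edges mark where listed peaks stop, and the accuracy with which they mark anything else depends on the spacing of peaks around them.

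Going outward from the lower edge, the 5 next peaks had 13, 15, 14, 15 and 12 reads. They lay 21.9, 63.2, 79, 82.6 and 85.7 kb from the edge, the nearest at chr9:20640502-20640578 and the furthest at chr9:20576658-20576717. Going outward from the higher edge, the 5 next had 16, 13, 13, 16 and 13 reads, at 13.4, 32, 53.1, 55.2 and 77.3 kb. Here the nearest was at chr9:23142988-23143202 and was 215 bp wide, and the furthest was at chr9:23206953-23207010. On both sides the peaks nearest the stretch thus had heights of 12 to 16 reads, inside the range of most peaks of the window.

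Neither side was uniform. By inner and outer parts, counts rose outward on the lower side and fell outward on the higher side. Along the chromosome both thus fell with rising coordinate. In steps of 250 kb outward from the lower edge, the counts were 11, 14, 24, 27, 26, 27, 30, 46 and 19 peaks. From the higher edge they were 18, 11, 9, 8, 10, 5, 7, 6 and 11. The 1.23 Mb of the lower side nearer the stretch held 101 peaks and the outer 1.23 Mb held 139, while on the higher side the inner part held 56 and the outer part 33. Within 500 kb of the edges the sides had 25 and 29 peaks, and within 1 Mb they had 76 and 46. The difference between the sides over their full length, 97.3 against 36.1 peaks per Mb, therefore came from peaks more than 500 kb from the stretch. The densest step, 1750 to 2000 kb from the lower edge, was made of low peaks. Its 46 peaks had a median pileup of 13 reads, a highest of 18 and a median space of 3.07 kb between them.

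**Figure D2:**
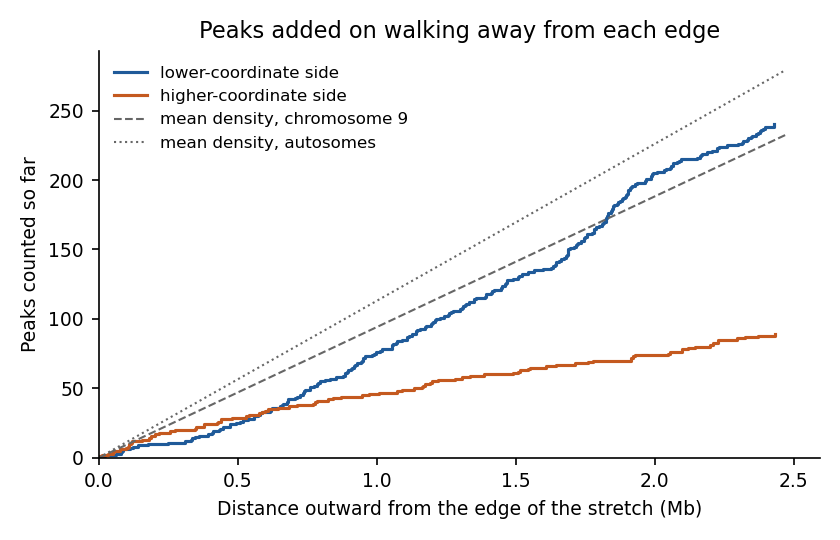
The horizontal axis is the distance outward from each edge of the stretch (Mb) and the vertical axis the number of peaks met so far, with straight lines for the mean densities of chromosome 9 (94.1 per Mb) and of the autosomes (113 per Mb). The higher-coordinate side is ahead at 250 kb, with 18 peaks against 11, and at 500 kb, with 29 against 25. Further out the lower-coordinate side climbs to 240 peaks and the higher-coordinate side reaches 89.

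Set beside the rest of the genome, the lower side had close to the mean density of chromosome 9, and the higher side was sparse. Chromosome 9 had 94.1 peaks per Mb between its first and last peak and the autosomes had 113. These means include long peak-free stretches, 1 of them of 19.24 Mb on chromosome 9. By the median space between peaks, the lower side was sparser than chromosome 9, at 6.95 kb against 4.08 kb. The autosomes were cut into 1121 tiles as long as the stretch, with a median of 247 peaks. Of these tiles 48.7% had no more peaks than the lower side and 9.81% no more than the higher side. The sparse side was not bounded by the window. In 1 Mb bins, the 7 bins from 25 to 32 Mb of chromosome 9 held 36, 40, 81, 55, 44, 36 and 40 peaks, and the bin from 32 to 33 Mb held 137. On the other side, the 7 bins from 8 to 15 Mb held 46, 41, 35, 60, 32, 56 and 63 peaks, so counts as low as those of 25 to 32 Mb were found there too. The bins from 15 to 18 Mb held 97, 84 and 71 peaks, and the bins at 18 to 19 and 19 to 20 Mb held 112 and 104. The bin at 20 to 21 Mb, in which the stretch begins, held 38.

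At the density of the 2 sides pooled, 66.7 peaks per Mb, a length equal to the stretch would hold 164 peaks. It would hold 240 at the density of the lower side and 89 at that of the higher side. The 1 Mb next to each edge gives 150, and chromosome 9 as a whole gives 232. The stretch held 0. No bound on its density is drawn from this 0, because the stretch was picked as the longest. Chromosome X, with 0.857 peaks per Mb in this list, would give 2.11 peaks in such a length. No chance of an empty stretch was computed, since the stretch was picked because it was empty and peaks are not spread evenly along the chromosome. Of the 1121 autosomal tiles of this length, 23 (2.05%) had 0 peaks, 7 of them on chromosome 9. The tiles also cross the longest peak-free stretches, of 21.05, 19.24 and 11.14 Mb on chromosomes 1, 9 and 16. Parts of the build without known sequence were not left out, so this is not a share among places where peaks could be called.

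The 9p21 stretch was set beside the other long stretches by what lay at its edges. It ranked 20 by length among 34 autosomal stretches over 1 Mb and was the third longest of chromosome 9. A background above the shared level was found at 4.19% of the whole list, so 0 among 20 peaks is near that share. The 9p21 stretch had 0 among its 20 nearest peaks, 10 on each side. Among the 19 longer stretches this was so for 3, on chromosomes 3, 7 and 9, with 79, 119 and 112 peaks within 1 Mb of both edges, close to the 122 of the 9p21 stretch. In the others the number of peaks above the shared level went up to 13 of 20. Of the 14 shorter stretches, 9 were on chromosome 3. The 1 Mb on both sides of those 9 held a median of 6 peaks (range 3 to 108). Stretches with 0 such peaks and well-filled surroundings were thus not particular to 9p21. On chromosome 5, stretches of 1.49 and 1.45 Mb had 200 and 80 peaks within 1 Mb, also with 0 of 20 above the shared level. What any of these stretches are was not tested, and parts of the build without known sequence were not marked or left out. The ranks therefore count stretches of any kind, including any in which no peak could be called.

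**Figure D3:**
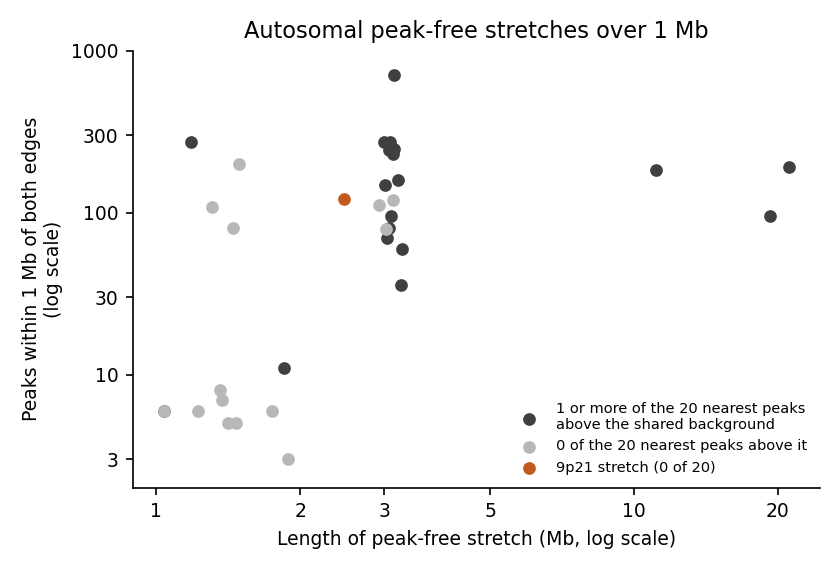
Each point is 1 of the 34 autosomal peak-free stretches over 1 Mb, by its length (Mb, log scale) and the number of peaks within 1 Mb of both edges (log scale). Dark points have at least 1 of their 20 nearest peaks above the shared background and pale points have none. The 9p21 stretch, in orange, lies at 2.47 Mb and 122 peaks. Of the other pale points, 6 lie at 79 to 200 peaks, around its level, and the rest at 3 to 8.

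Within the sides, the next stretches without peaks were far shorter and most lay on the higher side. The second longest, of 137 kb, ran from the peak at chr9:24907198-24907479, with 13 reads, to that at chr9:25044654-25044710, also with 13. The third, of 119 kb, lay between chr9:25058412-25058506 with 12 reads and chr9:25177895-25178152 with 17. The fourth, of 103 kb, lay between chr9:24516063-24516154 with 16 reads and chr9:24618860-24618994 with 15. The fifth, of 76.8 kb, lay between chr9:24001036-24001136 and chr9:24077956-24078006, each with 12 reads. All 4 were on the higher-coordinate side. The longest on the lower side was 72.4 kb. Spaces over 50 kb numbered 15 of 88 on the higher side and 3 of 239 on the lower. The median space was 20.7 kb (95% interval 15.5 to 27) on the higher side and 6.95 kb (5.48 to 7.89) on the lower, against 4.08 kb on chromosome 9. Spaces are made of the peak positions that the window was chosen on, and the intervals treat them as independent. They are given as a description and test no difference.

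Spaces of at most 1000 bp were counted as well. Of the spaces between neighbouring peaks, 25 of 239 on the lower side (10.5%, exact Clopper-Pearson 95% interval 6.88 to 15.1) and 5 of 88 on the higher side (5.68%, 1.87 to 12.8) were that short. The share was 17.5% on chromosome 9 and 19% over the autosomes. These shares follow peak density, which the window was chosen on, and are given as a description.

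Peak heights on the sides were near each other although their densities were not. The median pileup was 14 reads on both, with quartiles of 13 and 15, as on the autosomes. By single height, 12 reads made up 9.17% of peaks on the lower side and 8.99% on the higher. At 13 reads the shares were 31.2% and 31.5%, and at 14 reads 26.2% and 27%. At least 16 reads were reached by 37 of 240 peaks on the lower side (15.4%, 11.1 to 20.6) and 16 of 89 on the higher side (18%, 10.6 to 27.5). These intervals overlap widely, which does not show that the heights are alike. Counted per Mb, peaks of at least 12 reads were 2.7 times as dense on the lower side as on the higher, those of at least 15 reads 2.76 times and those of at least 17 reads 2.29 times. The ratio stayed between 2.29 and 3 for minimum heights from 12 to 18 reads, with 6 and 2 peaks left at 18.

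Few peaks of the window were tall. Of the 329 peaks, 8 reached 18 reads (2.43%, 1.06 to 4.73), against 5.43% on the rest of chromosome 9 and 6.67% of autosomal peaks. They were 6 of 240 on the lower side (2.5%, 0.923 to 5.36) and 2 of 89 on the higher side (2.25%, 0.273 to 7.88), where the interval takes in both of those shares. With q of at most 0.01 there were 52 peaks (15.8%, 12 to 20.2), against 20.7% of the whole list. The strongest peak of the window lay at chr9:19395539-19395781, 1267 kb from the lower edge, with 31 reads, a fold of 6.05 and a −log10 q of 12.7. It was the only member with at least 25 reads (0.304%, 0.0077 to 1.68). That interval takes in the 0.696% of the rest of chromosome 9 and the 0.861% of autosomal peaks. The next strongest peak was also on the lower side, at chr9:19981605-19981813 with 21 reads and a fold of 4.16. After it, chr9:19591608-19591755 and chr9:19924452-19924638 tied at 19 reads and a fold of 3.78. On the higher side the strongest reached 18 reads and a fold of 3.59, at chr9:23508240-23508409 and chr9:25183404-25183564. Another 5 peaks tied there at 17 reads, of which chr9:23478090-23478186 lay nearest the stretch, 348 kb from the edge. No peak of the higher side reached 20 reads, which for 89 peaks allows a share of up to 4.06% (upper bound of the exact interval). That bound takes in the 2.09% of the rest of chromosome 9 and the 2.62% of autosomal peaks.

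**Figure D4:**
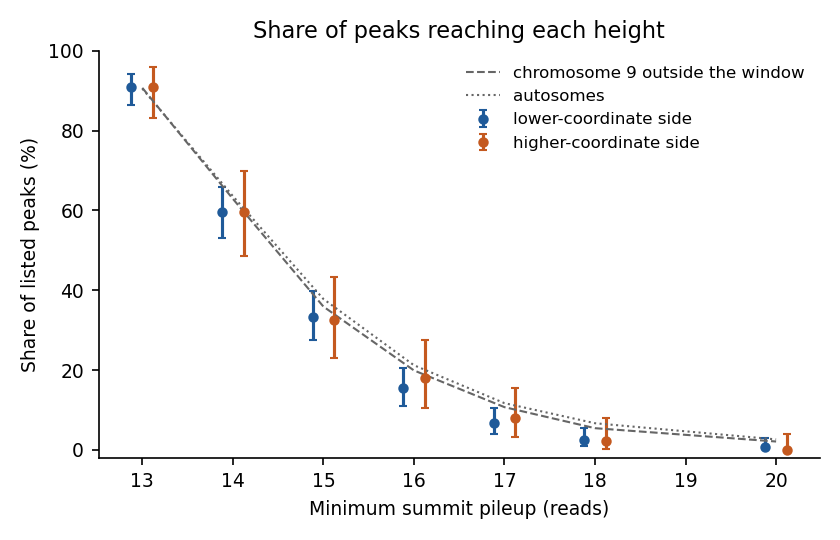
For each minimum summit pileup (reads, horizontal axis), points give the share of listed peaks (%) that reach it on each side of the stretch, with exact 95% intervals, and lines give the rest of chromosome 9 and the autosomes. The intervals of the 2 sides overlap at every height plotted, and from 14 reads the points of both lie below the autosomal line, though many of the intervals reach it.

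Peak width followed height on both sides. The median width was 92 bp (87 to 97, exact order-statistic interval) on the lower side and 86 bp (81 to 97) on the higher side, against 98 bp on the rest of chromosome 9 and 99 bp on the autosomes. At 12 to 13 reads the medians were 77 bp on the lower side (n = 97), 72.5 bp on the higher side (n = 36) and 74 bp for autosomal peaks at the shared background. At 14 to 15 reads they were 95.5, 91 and 102 bp. At 16 to 19 reads they were 152 bp (n = 35), 130 bp (n = 16) and 144 bp. Peaks over 150 bp were 31 of 240 (12.9%) on the lower side and 12 of 89 (13.5%) on the higher, against 16.4% of autosomal peaks. The widest of each side were low for their width, 288 bp at chr9:20189996-20190283 with 15 reads and 282 bp at chr9:24907198-24907479 with 13. The peaks of the window covered 25 kb on the lower side and 8.92 kb on the higher.

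A raised local background was rare. It was found at 4 peaks of the lower side and 2 of the higher, 1.82% of the window, against 4.19% of the whole list. The highest was 5.64 reads, at chr9:19829165-19829279, 833 kb from the lower edge. The 2 on the higher side had 4.70 reads, at chr9:23284821-23284901 and chr9:25050338-25050390. No member therefore had a background far above the shared level. The background was inferred from fold and p, and at the shared level it takes 1 value, so it shows no difference between places there. Inside the stretch no background could be recovered.

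At the limits of the window, the outermost members were chr9:18231962-18232117 with 17 reads and chr9:25563775-25563919 with 14 reads. The first peaks outside were chr9:18194883-18194935 with 13 reads and chr9:25620097-25620217 with 17. The lower limit lies just above the summit of the first of these.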

How the data were processed

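Chromatin immunoprecipitation sequencing of 2 pooled samples of Reh cells was deposited, with 1 peak list for the ETV6-HA pool. The untagged pool was not analysed here. The submitters' processing notes name MACS2 2.1.1.20160309 and Bowtie2 2.2.3, with hg19 as the build. How each was run, and against which control, is not given in the sources at hand. The authors' deposited list gives start, end, summit and a deposited fold, read as pileup over background on a linear scale. It also gives the summit's −log10 of p and of q, and a deposited score that was not used. The highest q is 0.098.

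Total reads of the library were not at hand, so depth is the pileup at each summit. Pileup and background were recovered from fold = (pileup + 1)/(background + 1) and the Poisson tail behind p. This gave a whole pileup, to within 0.05, at 99.9997% of all peaks and at 329 of 329 members. The step was tested on simulated data. Positions are 1-based. A stretch runs from the end of a peak to the start of the next. Shares have exact Clopper-Pearson 95% intervals, which treat peaks as independent. Peaks named by position follow a rule: the edge peaks, the 5 next outward, the 3 strongest by −log10 q (ties by fold, then position) and the widest of each side, and the edges of the 4 next stretches. The peaks with a raised background, a tied peak, those at the window limits, the chromosome 5 stretches and the densest step are outside it, picked with their values in view. Members, window and lists were chosen with earlier results of these data known. Alternatives were stricter q, merging within 1000 bp, summit distances and flanks of 1 Mb. Software was scipy 1.17.1, numpy 2.4.6, matplotlib 3.10.9 and pandas 2.3.3 under Python 3.11.15.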

Additional observations from a re-analysis of the deposited data

How the results depend on the processing

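Of 23 alternatives, 15 left a count, density or length within 1.5 times of its value, or a median within its interval, and 8 moved it. These are counts, lengths and medians without a direction, so 0 could be reversed. The stretch kept the same edges at q of at most 0.05 and measured 2467249 bp from summit to summit. At q of at most 0.01 it was 2622140 bp long, from 20520848 to 23142987, since its edge peaks no longer counted. At that threshold, by construction, the window held 52 peaks, with 14.6 per Mb on the lower-coordinate side and 6.48 on the higher. The median width rose to 154 bp and 130 bp, and the median pileup to 16 reads on each side. The number of peaks expected in the stretch was 164 from both sides and 89 from the higher side alone. Merging within 1000 bp left 299 peaks. No paired analysis was possible because each group is 1 pool, and no replicate could be left out. No listed summit is below 12 reads, so lower summits cannot be seen at any setting.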
